A study of Mus musculus with 8 samples.

Results

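Non-cycling checkpoint-high CD8 T cells are the cytotoxic T cells of these tumours that carried RNA of several inhibitory receptors and little RNA of the cell division program. They were chosen by detection, where a gene counts as detected in a cell with at least 1 UMI (a unique molecular identifier, the count of 1 captured RNA molecule). A cell had to show at least 2 of the T cell receptor complex genes Cd3d, Cd3e, Cd3g, Trac and Trbc2, at least 1 of Cd8a and Cd8b1, no Cd4 or Foxp3, at most 1 of the cycling genes Mki67, Top2a, Birc5, Cenpf, Ube2c and Ccna2, and at least 2 of the checkpoint receptor genes Pdcd1, Havcr2, Lag3 and Tigit. This gave 399 cells of 29496 in all: 320 from tumours of wild-type hosts and 79 from tumours of hosts with deleted Atg7. They were 399 of the 962 non-cycling CD8 T cells, and the other 563, with at most 1 checkpoint gene, are called checkpoint-low cells here.

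All tumours grew from MB49, a mouse urothelial cancer cell line, injected under the skin of C57BL/6 mice. Every host, controls included, carried the Cre recombinase UbcreERT2, which a ubiquitin C promoter drives and tamoxifen switches on, and received tamoxifen on 4 days, 1 week before the injection. The 4 wild-type libraries (numbers 1, 2, 5 and 6 in the labels) came from UbcreERT2/+;Atg7+/+ hosts and the 4 deleted libraries (3, 4, 7 and 8) from hosts with floxed Atg7, labelled Atg7∆/∆ after tamoxifen. Atg7 encodes an enzyme needed to form autophagosomes, and the tumour cells themselves were not taken from these hosts. Tumours were collected 3 weeks after the injection, at 2 tumours per mouse, and the labels do not tie tumours to mice, so p-values here measure only the spread between libraries. Per its title, the study concerned host autophagy, tumours of high mutational burden and the T cells directed at them.

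CD8 T cells kill tumour cells by releasing perforin, which opens membranes, and granzymes, which cleave proteins inside the target. Repeated contact with antigen leads them to put several inhibitory receptors on their surface: PD-1 (encoded by Pdcd1), TIM-3 (Havcr2), LAG-3 (Lag3) and TIGIT (Tigit). Cells in this state are commonly divided into progenitors, which keep the transcription factor TCF-1 (Tcf7) and can renew the pool, and more differentiated cells, which lose it. In tumours such cells are the main target of antibodies that block checkpoint receptors.

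Libraries 1 to 4 and libraries 5 to 8 stood apart in ways that touch the choice of cells. Each of these sets holds 2 wild-type and 2 deleted libraries. Any pair of libraries from different sets shared at most 1 cell barcode, pairs within the first set shared 0 to 5, and pairs within the second shared 7 to 46. In T cells, the T cell receptor V segments gave 0 to 1.07 UMIs per 100 UMIs of constant region in the first set and 5.85 to 69.9 in the second, although the labels name a single 5′ kit for all. The checkpoint genes split in the same way. Among non-cycling CD8 T cells, Tigit was detected in 1.79 to 5.81% of cells of the first set and in 29.6 to 58.6% of the second. Lag3 was detected in 11.0 to 23.5% against 23.8 to 56.1%, Havcr2 in 30.2 to 58.8% against 19.0 to 25.6%, and Pdcd1 in 26.8 to 58.8% against 9.52 to 38.2%. The cause of this split was not tested, and results are given within the sets where both allow it.

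**Figure D1:**
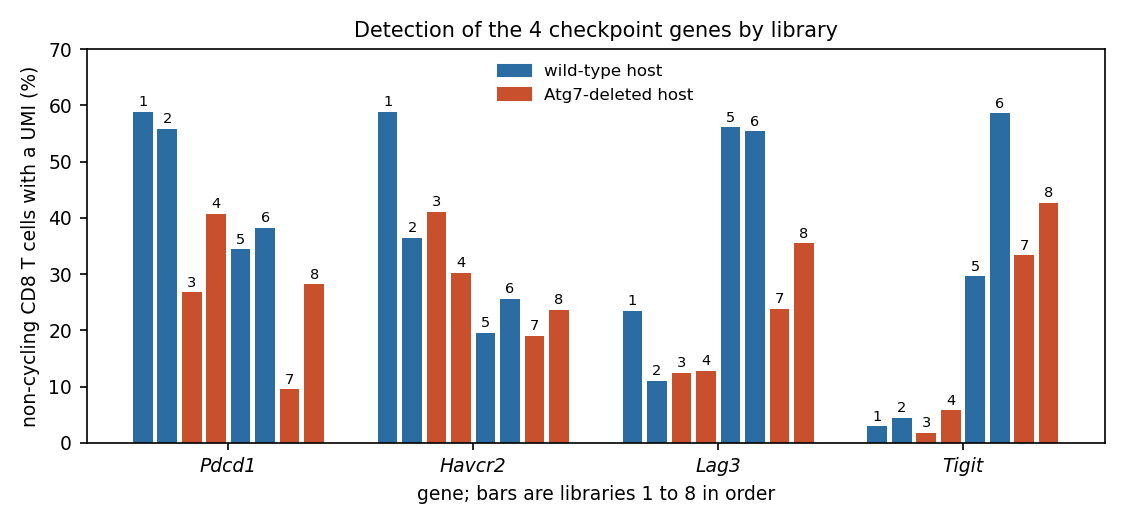
Share of non-cycling CD8 T cells with at least 1 UMI of each checkpoint gene (vertical axis, %), with 1 bar per library in the order 1 to 8, blue for wild-type hosts and orange for Atg7-deleted hosts. Tigit stays at or below 5.81% in libraries 1 to 4 and is at least 29.6% in libraries 5 to 8, in both genotypes.

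The receptors therefore combined differently in the 2 sets. Of the 108 checkpoint-high cells of libraries 1 to 4, 59 (54.6%) carried Pdcd1 with Havcr2 and no other checkpoint gene. Of the 291 of libraries 5 to 8, 8 (2.75%) did so, while 56 (19.2%) carried Pdcd1, Lag3 and Tigit, 53 (18.2%) Lag3 and Tigit, and 30 (10.3%) all 4 receptors. Over both sets, 243 cells had exactly 2 of the receptor genes, 125 had 3 and 31 had 4. The cells just inside the limit, with exactly 2, held a median of 3 checkpoint UMIs in 3590 UMIs per cell. The 314 cells just outside it, with exactly 1, held a median of 1 checkpoint UMI in 3023.5 UMIs, so a single captured molecule often decided the choice.

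Free RNA in a droplet can also give a UMI. As a background, the checkpoint genes were counted in 6396 cells with at least 3 of 4 keratin genes (Krt7, Krt8, Krt18 and Krt19) and none of the 5 T cell genes. These cells were deeper, with median UMIs of 10192 to 20515 by library against 2254 to 6134 in non-cycling CD8 T cells. Pdcd1 was detected in at most 0.182% of the keratin cells, Tigit in at most 5.88% and Lag3 in at most 10.7%. Havcr2 was detected in 8.54 to 38.5% of them, a share that overlaps the one in the T cells. Per UMI, Havcr2 was lower in the keratin cells of every library, at 0.0788 to 0.591 UMIs per 10000 against 0.60 to 2.42 in the T cells. With every cell thinned to 1000 UMIs, Havcr2 was found in 0 to 4.62% of keratin cells and in 4.76 to 17.6% of the non-cycling CD8 T cells. In library 7, with 4.62 against 4.76%, a Havcr2 UMI could not be told from this background. Library 4 had 3.03 against 5.81%. Deleted libraries 3, 4, 7 and 8 held only 10, 34, 65 and 28 keratin cells, so their background is uncertain. The Lag3 maximum of 10.7% came from library 8.

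Levels of genes the rule used are given here as a description. Cd8a, which encodes a chain of the CD8 coreceptor, had 7.5, 5.99, 8.39 and 9.34 UMIs per 10000 in libraries 1, 2, 5 and 6 (wild type). In libraries 3, 4, 7 and 8 (deleted) it had 7.88, 4.75, 3.62 and 3.70. Both Cd8 genes were detected in 309 of the 399 cells, and 4 or 5 of the 5 T cell genes in 354. Of the 6 cycling genes, 78 cells showed 1 and the others none. Pdcd1 had 3.66, 4.06, 3.49 and 2.91 UMIs per 10000 in the same wild-type order, against 2.02, 3.42, 0.916 and 1.84 in the deleted order. The rule did not use a further pair of markers of these cells: Cxcr6, a chemokine receptor of tissue-resident and tumour-infiltrating T cells, at 3.01 to 9.18 UMIs per 10000, and Rgs16, a regulator of G protein signalling induced by T cell activation, at 2.98 to 8.41, over all 8 libraries.

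Some of these cells also held RNA of other cell types. Summed over 49 genes of macrophages, malignant cells, fibroblasts, neutrophils, B cells, endothelial and erythroid cells, 62 of the 399 cells had more than 30 UMIs per 10000, 39 of the 320 wild-type cells and 23 of the 79 deleted cells. By library, these were 17.6, 30.5, 7.14 and 7.5% of the checkpoint-high cells in wild-type libraries 1, 2, 5 and 6. In deleted libraries 3, 4, 7 and 8 they were 30, 50, 0 and 20.5%. The 12 myeloid genes summed to a mean of 83.98 UMIs per 10000 in library 4, against 3.16 to 31.9 in the wild-type libraries, and the 7 fibroblast genes to 67.2 in library 8, against 0.216 to 4.77. In library 8 the median cell had 0 UMIs of both lists. No doublet caller was run.

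**Figure D2:**
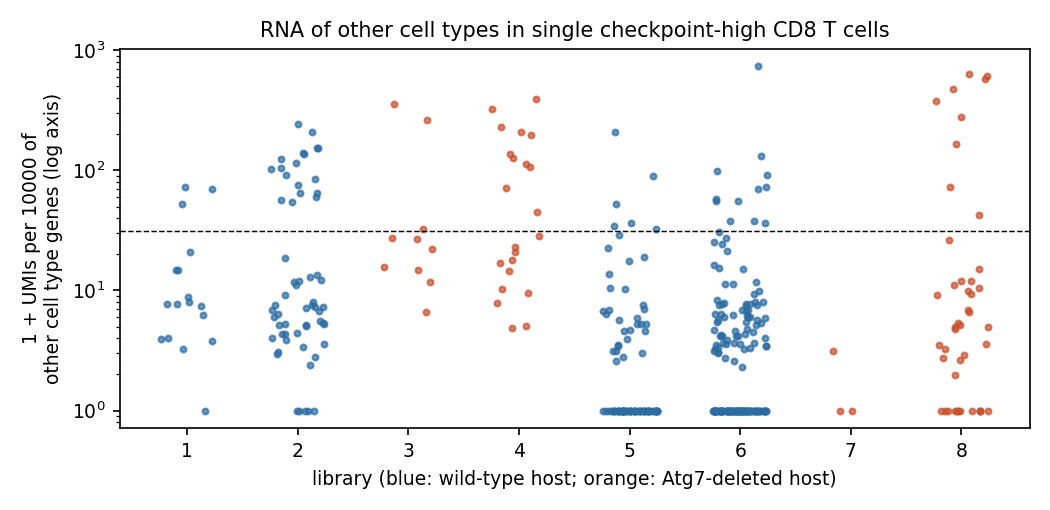
RNA of other cell types in each checkpoint-high CD8 T cell, as 1 plus UMIs per 10000 summed over 49 genes (log axis), by library, blue for wild-type and orange for Atg7-deleted hosts. The dashed line marks 30 UMIs per 10000, above which lie 62 of 399 cells, among them 11 of the 22 cells of library 4.

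Checkpoint-high cells made up a smaller part of the T cells in tumours of deleted hosts. Of the cells with at least 2 T cell receptor complex genes, they were 17 of 63 (27.0%), 59 of 403 (14.6%), 84 of 418 (20.1%) and 160 of 508 (31.5%) in wild-type libraries 1, 2, 5 and 6. In deleted libraries 3, 4, 7 and 8 they were 10 of 285 (3.51%), 22 of 323 (6.81%), 3 of 151 (1.99%) and 44 of 615 (7.15%). The lowest wild-type library therefore lay above the highest deleted library. The mean was 23.3 ± 7.44% (SD, n = 4) against 4.87 ± 2.53% (SD, n = 4), a difference of -18.4 percentage points. A two-sided exact permutation test gave p = 0.0286, the smallest p that 4 against 4 libraries allow, and 0.0762 after Benjamini-Hochberg adjustment over 4 denominators. Without the cells above 30 UMIs per 10000 of other cell types it was 25.2 ± 9.40% against 5.42 ± 2.31% (SD, n = 4 each, exact permutation p = 0.0286), again with no overlap. The difference was -15.7 points in libraries 1 to 4 and -21.2 points in libraries 5 to 8, and permuting within these sets gave an exact p of 0.0556, the smallest this allows. The CD8 T cells as a whole were also a smaller part of the T cells in deleted hosts, with no overlap. In libraries 1, 2, 5 and 6 they were 44 of 63, 257 of 403, 257 of 418 and 347 of 508. In libraries 3, 4, 7 and 8 they were 68 of 285, 109 of 323, 26 of 151 and 140 of 615. The share of checkpoint-high cells among T cells therefore includes this difference.

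Narrower denominators gave differences of the same sign with overlapping libraries. Of all CD8 T cells the share was 35.1 ± 9.78% against 19.5 ± 8.74% (SD, n = 4 each, exact permutation p = 0.0571, adjusted 0.0762). Of the non-cycling CD8 T cells it was 50, 32.6, 44.4 and 56.1% in wild-type libraries 1, 2, 5 and 6, and 17.9, 25.6, 14.3 and 40% in deleted libraries 3, 4, 7 and 8. Only deleted library 8 reached into the wild-type range. The means were 45.8 ± 10.0% and 24.4 ± 11.4% (SD, n = 4 each, exact permutation p = 0.0571, adjusted 0.0762). Of all cells in the library the share was 1.71 ± 0.890% against 0.585 ± 0.351% (SD, n = 4 each, exact permutation p = 0.0857, adjusted 0.0857).

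Since membership rests on detection, it was also counted with all cells thinned to a depth of 1000 UMIs, without those that were shallower. The shares of T cells were then 6.67, 3.82, 7.14 and 10.7% in wild-type libraries 1, 2, 5 and 6 and 0, 1.02, 1.27 and 0.723% in deleted libraries 3, 4, 7 and 8. Library 3 had 0 of 122 such cells, which allows a share of up to 2.46%, for counting error only. The means were 7.09 ± 2.84% and 0.752 ± 0.548% (SD, n = 4 each). Of the non-cycling CD8 T cells, 14.5 ± 5.26% were checkpoint-high in wild-type hosts, against 4.66 ± 3.49% (SD, n = 4 each). Both differences, and that for all cells, had an exact permutation p of 0.0286 (adjusted 0.0381) with no overlap between genotypes. For CD8 T cells the p was 0.0571 (exact permutation, adjusted 0.0571). Thinning also loses UMIs of cycling genes, Cd4 and Foxp3, so cells that the rule leaves out at full depth could enter. At full depth there were 118 cycling checkpoint-high cells in wild-type and 35 in deleted hosts. The thinned shares of deleted hosts rest on few cells. At 2000 UMIs the share of T cells was 17.1 ± 11.9% against 2.14 ± 1.27% (SD, n = 4 each, exact permutation p = 0.0286, adjusted 0.114), and the share of non-cycling CD8 T cells overlapped between genotypes (exact permutation p = 0.171).

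**Figure D3:**
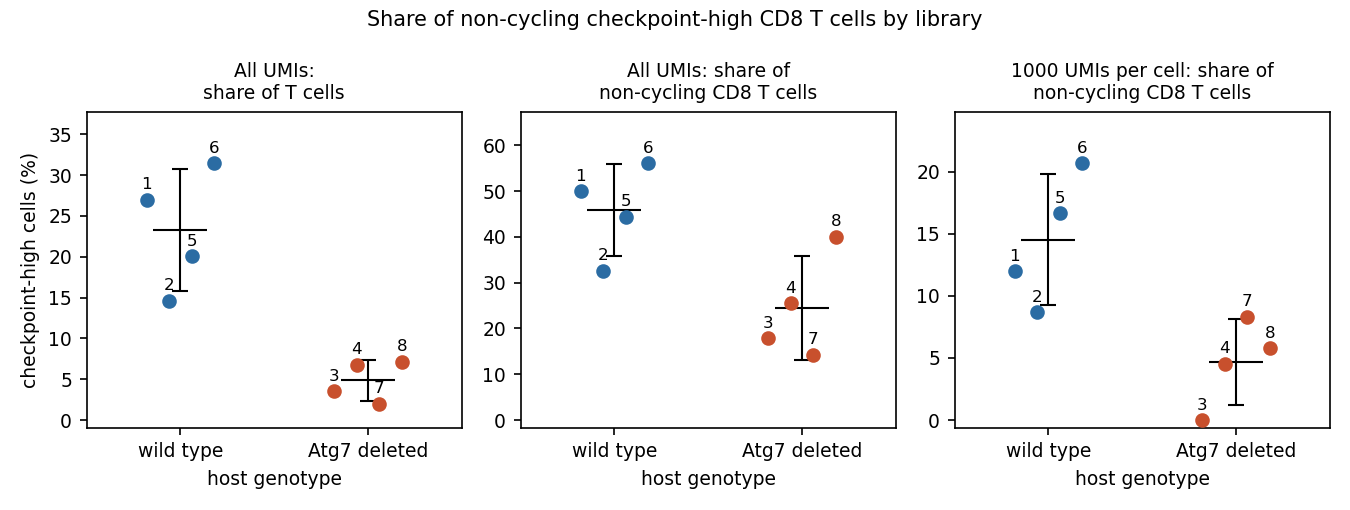
Checkpoint-high cells as a share of T cells (left), of non-cycling CD8 T cells (middle) and of non-cycling CD8 T cells after thinning each cell to 1000 UMIs (right), in %. Each point is a library with its number, and bars give the mean and SD of 4 libraries. The genotypes do not overlap on the left and the right, and library 8 (40%) lies within the wild-type range in the middle.

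The share depended on how many receptors were required. With at least 3 of the 4 checkpoint genes, the share of T cells was 7.24 ± 6.49% against 2.02 ± 1.23% (SD, n = 4 each, exact permutation p = 0.2), and the share of non-cycling CD8 T cells 14.0 ± 11.5% against 10.9 ± 7.07% (SD, n = 4 each, exact permutation p = 0.686). This last difference turned in direction, at 0.669 points in libraries 1 to 4 and -6.88 points in libraries 5 to 8. For CD8 T cells the same values were 0.770 and -5.32 points.

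The first gene to look at within the cells is Atg7, the gene deleted in the hosts. It was scarce, at 0.219, 0.127 and 0.121 UMIs per 10000 in libraries 2, 5 and 6 (wild type), and at 0.112 and 0.198 in libraries 4 and 8 (deleted), the libraries with at least 20 checkpoint-high cells. The genotypes overlapped, at 0.156 ± 0.0547 (SD, n = 3) and 0.155 ± 0.0608 (SD, n = 2), with an exact permutation p of 1, where 0.1 is the smallest possible. The deposited values count the gene as a whole, so they do not show whether the deleted exons were missing and check nothing about the labels. In these 5 libraries the cells of deleted hosts were deeper: the median was 4755, 2564 and 3121 UMIs per cell in libraries 2, 5 and 6, and 8283 and 5214 in libraries 4 and 8 (exact permutation p = 0.1, the smallest possible). With libraries 1 and 3 added, at 5062 and 4464 UMIs, the genotypes overlapped (exact permutation p = 0.171).

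Among the checkpoint-high cells, 1 gene of 6232 tested differed between host genotypes. Fn1, which encodes the matrix protein fibronectin, had 0.252, 0 and 0.213 UMIs per 10000 in libraries 2, 5 and 6, against 2.73 and 2.91 in libraries 4 and 8. Both deleted libraries were above all 3 wild-type libraries. Its log2 difference, deleted minus wild type, of the mean UMIs per 10000 plus 0.5 was 2.36 (SE 0.27, limma adjusted p = 0.0404). Genes called higher in deleted hosts were thus 0.016% of those tested and genes called lower 0%, while 287 genes had an unadjusted p under 0.05. With a term for the barcode sets 35 genes were called, all higher in deleted hosts. With 1 library left out the calls were 1 (without library 2), 64 (without 4), 0 (without 5 or 6) and 4 (without 8), and leaving out library 4 or 8 left 1 deleted library. Fn1 passed in 8 of 18 alternatives, with adjusted p from 0.000308 to 0.621, and without library 5, 6 or 8 it was 0.621, 0.309 or 0.0502.

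Genes of fibroblasts and macrophages leaned the same way as Fn1 between genotypes. Their mean sums varied by library. The myeloid genes summed to a mean of 8.63 UMIs per 10000 in deleted library 8 and 31.9 in wild-type library 2. The fibroblast genes summed to a mean of 5.39 in deleted library 4 and 4.77 in wild-type library 6. The median and the highest cell were 3.63 and 39.5 in library 4, and 0 and 731 in library 6. In deleted library 8, with a mean of 67.2, they were 0 and 635. All 4 fibroblast genes tested (of 7 listed) had positive differences, with a median of 2.74 on the log2 scale, against a median of 0.06 over all genes tested. Among them, Col1a1, a collagen chain, stood at 0.0748, 0 and 1.33 UMIs per 10000 in libraries 2, 5 and 6 and at 2.52 and 17.4 in libraries 4 and 8. Of the 12 myeloid genes, 11 had positive differences, with a median of 1.16. No gene of either list passed the test. A gene could enter it through the 2 deleted libraries alone, which favours positive differences among genes near 0 in wild-type cells. The direction of such genes, Fn1 and the fibroblast genes included, is therefore not separate support. Behind Fn1, the smallest p belonged to C3 (complement, log2 difference 1.70), Cxcl1 (a neutrophil chemokine, 2.32), Col12a1 (0.79), Col5a3 (0.89), Mgst1 (1.03), Clmp (0.67), Thbs1 (1.77), Pianp (0.74) and Lmna (1.25), with limma adjusted p of 0.273 to 0.751. The part of other cells' RNA in the Fn1 difference was not tested. Without the cells above 30 UMIs per 10000 of other cell types, library 4 fell under 20 cells, library 8 was the only deleted library left, and Fn1 was not among the genes tested.

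No gene of the T cell function lists passed between genotypes within the checkpoint-high cells. Of the killing genes, 11 of 17 listed were tested and 8 had negative differences, with a median of -0.07. Gzmb, the granzyme B gene, had 19.9, 31.6 and 37.3 UMIs per 10000 in libraries 2, 5 and 6, against 22.1 and 19.4 in libraries 4 and 8. Prf1, the perforin gene, had 3.55, 6.48 and 4.65 against 2.78 and 1.30. The Gzmb levels overlapped, and the Prf1 levels did not. Their log2 differences were -0.46 (SE 0.48) and -1.11 (SE 0.40), with a limma adjusted p of 0.952 for each. All 6 effector cytokine genes tested had negative differences (median -0.32), among them Ifng, the interferon gamma gene, at -0.26 (SE 0.35). Some other lists leaned the other way. Positive were 21 of 27 signalling and feedback genes (median 0.39) and 15 of 18 interferon gamma response genes (0.34). So were 9 of 10 memory and progenitor genes (0.32) and 13 of 16 chemokine receptor and residency genes (0.35). Of the type I interferon response genes, 7 of 21 were positive (-0.05).

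The checkpoint receptors are described here without a test, since the rule used them. The log2 differences were -0.39 (SE 0.36) for Pdcd1, -0.06 (SE 0.35) for Havcr2, -0.70 (SE 0.70) for Lag3 and -0.59 (SE 0.80) for Tigit. Cxcr6 differed by -0.17 (SE 0.39, limma adjusted p = 0.980) and Rgs16 by 0.07 (SE 0.42, limma adjusted p = 0.998). Of 22 early genes that tissue dissociation is known to induce, 20 had positive differences in deleted hosts, with a median of 0.70, and none passed. Among 17 autophagy genes tested, 14 differences were positive with a median of 0.11, and none passed. Over all 6232 genes tested between genotypes, 58.7% of the differences were positive, with a median of 0.06.

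Checkpoint-high cells differed more clearly from checkpoint-low CD8 T cells of the same tumours. Within the 5 libraries with at least 20 cells of both kinds (wild-type 2, 5 and 6, deleted 4 and 8), 15 of 5318 genes were higher (0.282%) and 12 were lower (0.226%), with the genes of the rule left out, and 561 had an unadjusted p under 0.05. Over all 5318 genes, 53.3% of the differences were positive, with a median of 0.01. On the mean deposited log value, 105 were higher and 15 lower. The genes that were higher included the killing genes Gzmb, Prf1 and Nkg7, Rgs16 and Tnfrsf9, a pair of genes that activation induces, and the glycolytic genes Aldoa, Gapdh, Pgk1 and Pkm. The genes that were lower included Tcf7, Klf2 and Klf3 of the memory and progenitor program. Checkpoint-high cells were deeper in each of these libraries, with medians of 4755, 8283, 2564, 3121 and 5214 UMIs in libraries 2, 4, 5, 6 and 8 against 2691, 5453, 1768, 2208 and 3062 in checkpoint-low cells.

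Gzmb had the smallest p of this comparison. It stood at 19.9, 22.1, 31.6, 37.3 and 19.4 UMIs per 10000 in the checkpoint-high cells of libraries 2, 4, 5, 6 and 8, against 10.9, 7.42, 14.0, 14.6 and 6.20 in the checkpoint-low cells. Each checkpoint-high level was above all 5 checkpoint-low levels. The mean level was 2.45 times as high (26.1 ± 8.00 against 10.6 ± 3.78, SD, n = 5), and the log2 difference within libraries was 1.32 (SE 0.10, limma adjusted p = 9.79e-06). Gzmb passed in all 18 alternatives. With all cells thinned to 1000 UMIs, 5 genes were higher and 1 was lower of 1427 tested, all of them among the 27.

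The sequence upstream of Gzmb is shown because Gzmb had the smallest p. The gene lies on the minus strand of chromosome 14. Shown are the 250 bases before its RefSeq start (GRCm38.p6, chr14:56262335-56262584, minus strand, read 5′ to 3′). They hold in capitals AP-1 letters, TGAGTCA, starting at position -58, and RUNX core letters, TGTGGT, starting at -93 and -34 from the gene start.
Gzmb: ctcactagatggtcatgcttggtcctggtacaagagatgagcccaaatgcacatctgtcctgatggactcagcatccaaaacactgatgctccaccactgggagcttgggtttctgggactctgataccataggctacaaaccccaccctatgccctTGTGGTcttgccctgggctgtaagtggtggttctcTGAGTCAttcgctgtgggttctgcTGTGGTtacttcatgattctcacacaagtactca
Motifs were searched on both strands of windows from 250 bases before to 50 after each start, as TGANTCA for AP-1, TGTGGT for RUNX, TGGAAA for NFAT and AAAGGTCA for NR4A. Of 32851 RefSeq promoter windows, 7.81, 16.8, 21.4 and 1.51% held these letters. Of the 14 windows found for the 15 higher genes, 1, 4, 4 and 0 held them. Of the 8 windows found for the 12 lower genes, 0, 1, 0 and 0 held them. The windows searched for Rgs16 and Tcf7, the next genes by p, held none of these letters. A match of letters is a description and not a binding site.

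Other genes of cytotoxic cells followed Gzmb in part. Prf1 stood at 3.55, 2.78, 6.48, 4.65 and 1.30 UMIs per 10000 in checkpoint-high cells of libraries 2, 4, 5, 6 and 8 against 1.55, 1.23, 3.77, 1.68 and 0.325 in checkpoint-low cells, higher in 5 of 5 libraries (log2 difference 1.00, SE 0.13, limma adjusted p = 0.00145). Nkg7, which encodes a granule membrane protein, was 1.46 times as high (log2 difference 0.57, SE 0.10, limma adjusted p = 0.0151). In all, 3 of the 11 killing genes tested rose, none fell and 8 did not pass, with a median difference of 0.14 over the list and 0.01 over all genes. Gzma did not follow, with a log2 difference of 0.16 (SE 0.25, limma adjusted p = 0.880). Among 6 effector cytokine genes none passed: Ifng differed by 0.29 (SE 0.17, limma adjusted p = 0.598) and Tnf by -0.07 (SE 0.28, limma adjusted p = 0.955).

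Few genes of T cell receptor signalling or of chemokine receptors and residency passed. Of 26 signalling and feedback genes tested, Rgs16 alone rose and 18 differences were negative (median -0.09). Of 15 chemokine receptor and residency genes, Cxcr6 rose, Klf2 fell and 9 differences were negative (median -0.08). Rgs16 stood at 2.98, 5.38, 7.34, 4.27 and 4.34 UMIs per 10000 in checkpoint-high cells of libraries 2, 4, 5, 6 and 8 against 2.78, 1.07, 4.49, 3.29 and 0.605 in checkpoint-low cells. The 2 kinds of cell overlapped across libraries, but each library had more in its checkpoint-high cells (log2 difference 1.19, SE 0.12, limma adjusted p = 0.000359). Tnfrsf9, which encodes the costimulatory receptor 4-1BB, was 1.78 times as high (log2 difference 0.80, SE 0.15, limma adjusted p = 0.0240), the only 1 of 13 costimulation genes tested to pass. Cxcr6 was 1.41 times as high (log2 difference 0.61, SE 0.11, limma adjusted p = 0.0281) but did not pass when any 1 library was left out. Serpine2 (a protease inhibitor), Alcam (the adhesion molecule CD166), Irf8 (an interferon-related transcription factor), the long noncoding RNA gene AW112010 and the gene model AC163354.1 rose as well, by 0.59 to 1.14 on the log2 scale.

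Inhibitory receptors outside the rule did not pass. Ctla4, another checkpoint receptor, stood at 2.12, 2.75, 3.18, 2.43 and 2.96 UMIs per 10000 in checkpoint-high cells of libraries 2, 4, 5, 6 and 8 against 1.14, 1.15, 2.77, 1.31 and 1.93 in checkpoint-low cells, more in each library (log2 difference 0.63, SE 0.13, limma adjusted p = 0.0565). Of 11 genes tested from the list of other inhibitory receptors, which also holds the galectin gene Lgals3, 9 had positive differences (median 0.23). Of 18 genes of exhaustion transcription tested, 8 were positive and 10 negative (median -0.06) and none passed. Tox, a transcription factor central to exhaustion, was detected in too few cells to be tested here, with 0 to 0.718 UMIs per 10000 in the checkpoint-high cells of the 8 libraries.

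All 16 glycolysis genes tested had positive differences, and 4 of them rose: Aldoa by 0.71 (SE 0.11), Gapdh by 0.73 (SE 0.12), Pgk1 by 0.81 (SE 0.14) and Pkm by 0.60 (SE 0.12) on the log2 scale, with limma adjusted p of 0.0110, 0.0142, 0.0202 and 0.0408. The median of the list was 0.43. Gapdh stood at 18.3, 19.0, 19.5, 39.9 and 16.6 UMIs per 10000 in checkpoint-high cells of libraries 2, 4, 5, 6 and 8 against 13.2, 6.59, 15.9, 26.0 and 11.2 in checkpoint-low cells. Every library had more in its checkpoint-high cells, and the 2 kinds overlapped across libraries. Ldha, which makes lactate, differed by 0.55 (SE 0.12, limma adjusted p = 0.0635). The 11 hypoxia genes tested were all positive too, with a median of 0.28, and none passed. Leaving out library 4, 5 or 6 ended the calls of all 4 glycolysis genes, and leaving out library 2 those of Pgk1 and Pkm.

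**Figure D4:**
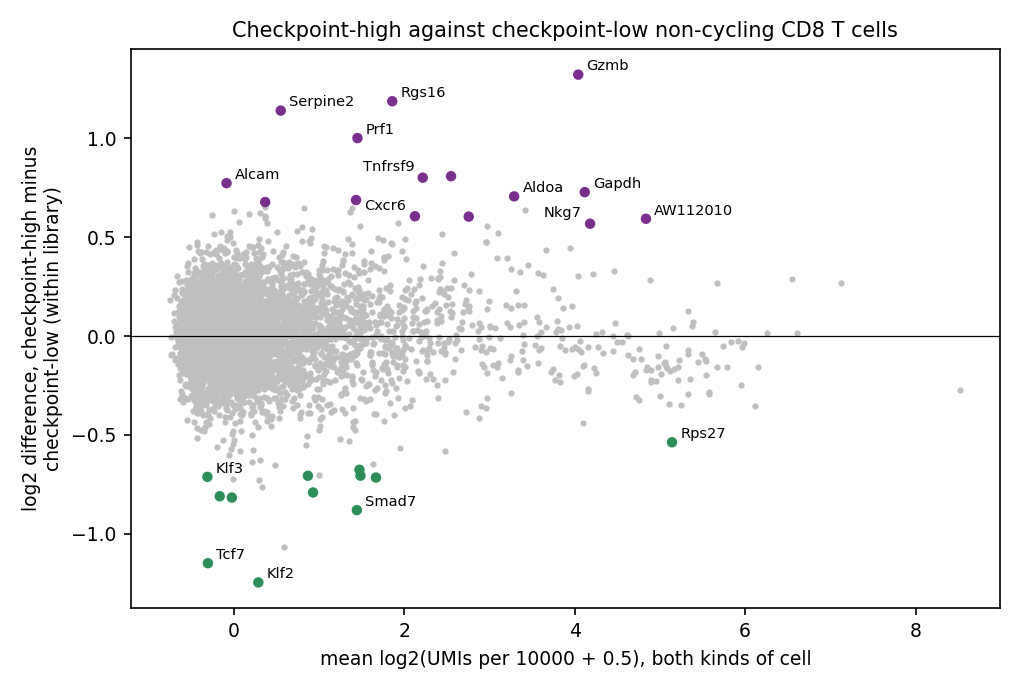
Log2 difference between checkpoint-high and checkpoint-low CD8 T cells of the same library (vertical axis) against the mean log2 level (horizontal axis) for 5318 genes in 5 libraries. Coloured points are the 15 genes that rose (purple) and the 12 that fell (green) at a limma adjusted p under 0.05, with Gzmb at 1.32 and Klf2 at -1.25 the farthest from 0 among them.

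The genes of memory and progenitor T cells fell in part. Tcf7, which encodes TCF-1, stood at 0, 0.144, 0.0507, 0.0914 and 0 UMIs per 10000 in checkpoint-high cells of libraries 2, 4, 5, 6 and 8, against 0.279, 1.05, 0.598, 0.679 and 0.994 in checkpoint-low cells. No library's checkpoint-high level reached the lowest checkpoint-low level. The mean level was 12.6 times as low, and the log2 difference was -1.15 (SE 0.13, limma adjusted p = 0.000575). These checkpoint-high levels lie near 0, so the size of the ratio is uncertain. Over the alternative settings the log2 difference of Tcf7 ranged from -2.45 to -0.347. Klf2, a transcription factor that keeps T cells in circulation, stood at 0.368, 0.392, 0.275, 0.129 and 0.506 against 0.609, 1.71, 0.656, 0.881 and 4.45 UMIs per 10000 in the same order (log2 difference -1.25, SE 0.17, limma adjusted p = 0.00259). Without library 5 its adjusted p was 0.0506. Klf3, a related factor, differed by -0.71 (SE 0.13, limma adjusted p = 0.0200). Of the 14 genes of this list tested, these 3 fell, none rose, and 13 differences were negative (median -0.30). Lef1, which encodes a transcription factor of the same family as TCF-1, differed by -0.60 (SE 0.14, limma adjusted p = 0.0879).

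Other genes that fell had varied roles. Smad7, an inhibitor of TGF-beta signalling, was 1.96 times as low (log2 difference -0.88, SE 0.13, limma adjusted p = 0.00437), and Cd7, a T cell surface protein, 3.54 times as low (-0.81, SE 0.13, limma adjusted p = 0.0110). Elmsan1, Gramd3, Gimap6, Ubald2, Pdcd4 (an inhibitor of translation), Ssh2 and the ribosomal protein gene Rps27 fell by 0.54 to 0.82 on the log2 scale. Across the 5 fits that each left out 1 library, 5 of the 25 named genes (the 27 without Rps27 and AC163354.1) passed every time: Gzmb, Rgs16, Serpine2, Prf1 and Tcf7. The others lost their call without library 5 and, apart from Klf2, also without library 6. The number of genes called ranged from 5 (without library 5) through 6 (without library 6), 12 (without library 4) and 15 (without library 2) to 97 (without library 8).

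RNA of other cell types was present in both kinds. Cells above 30 UMIs per 10000 of other cell types were 30.5, 50, 7.14, 7.5 and 20.5% of the checkpoint-high cells of libraries 2, 4, 5, 6 and 8, and 18.0, 20.3, 8.57, 24.8 and 28.8% of the checkpoint-low cells. None of the 12 myeloid, 4 fibroblast, 3 dendritic or 3 NK genes tested passed between the 2 kinds. Without these cells library 4 dropped out and 113 genes were higher and 72 lower, among them 26 of the 27 above.

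**Figure D5:**
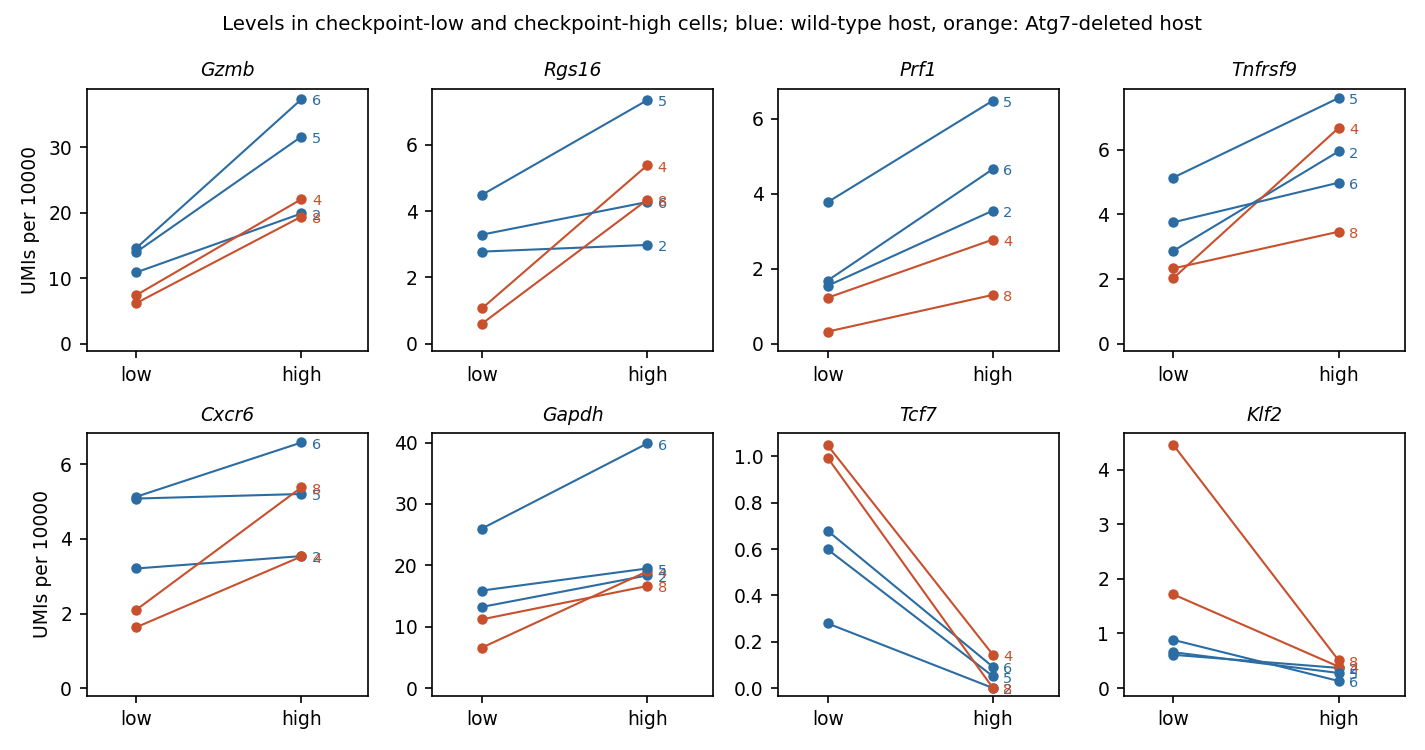
Levels of 8 genes in UMIs per 10000 in checkpoint-low (low) and checkpoint-high (high) non-cycling CD8 T cells, with a line joining the 2 kinds of a library, blue for wild-type and orange for deleted hosts, and the library number at the right. Gzmb, Rgs16, Prf1, Tnfrsf9, Cxcr6 and Gapdh are higher and Tcf7 and Klf2 lower in the checkpoint-high cells of all 5 libraries.

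The difference between checkpoint-high and checkpoint-low cells was itself compared between genotypes. Of 5318 genes, 2 had a more positive difference in deleted hosts (0.0376%), none a more negative one (0%), and 286 had an unadjusted p under 0.05. The 2 were Rgs16 and Ccl8, a chemokine that macrophages make. For Rgs16, checkpoint-low cells held 2.78, 4.49 and 3.29 UMIs per 10000 in libraries 2, 5 and 6, against 1.07 and 0.605 in libraries 4 and 8, while the checkpoint-high cells of the genotypes overlapped. The interaction on the log2 scale was 1.66 (SE 0.25, limma adjusted p = 0.0244). For Ccl8 it was 2.23 (SE 0.32, limma adjusted p = 0.0244), with 5.41 UMIs per 10000 in the checkpoint-high cells of library 4 and 0.0137 to 0.699 in those of the other 4 libraries. All 12 myeloid genes had positive interactions as well, with a median of 0.66, and none passed. Over all genes tested, 54.1% of the interactions were positive, with a median of 0.03. The next smallest p belonged to Ifitm1 (1.49), Cxcl1 (1.59) and Serpine2 (1.46), with limma adjusted p of 0.0923, 0.0923 and 0.109. Without library 2, 4, 5 or 6, Rgs16 no longer passed, with adjusted p of 0.129, 0.0595, 0.305 and 0.284. For Ccl8, leaving out library 4, 5 or 6 gave adjusted p of 0.233 to 0.349, and without library 2 it was not tested.

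Checkpoint-high cells that did divide lay on the other side of the cycling limit. There were 153 of them, with at least 2 cycling genes, and 3 wild-type libraries (2, 5 and 6) held at least 20 of both kinds, so the comparison covers wild-type hosts only. The non-cycling cells were shallower, with medians of 4755, 2564 and 3121 UMIs against 8975, 6497 and 6584. Of 3902 genes, 147 were higher (3.77%) and 255 lower (6.54%) in the non-cycling cells, and on the mean deposited log value 39 were higher and 741 lower. Because the limit sorts cells by division, lower genes of replication follow from it, and all 17 tested were lower, such as Tubb5, a tubulin, by -2.67 (SE 0.14), and Pclaf, a DNA clamp factor, by -3.06 (SE 0.19) on the log2 scale. Thinned to 1000 UMIs, 36 genes were higher and 32 lower of 815 tested.

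Among genes outside the division program, the chemokine gene Ccl5 stood out. It was at 92.5, 90.5 and 166 UMIs per 10000 in the non-cycling checkpoint-high cells of libraries 2, 5 and 6 against 35.9, 15.8 and 67.7 in the cycling ones, 2.92 times as high on average (log2 difference 1.71, SE 0.12, limma adjusted p = 8.97e-14). Against checkpoint-low cells its log2 difference was 0.29 (SE 0.11, limma adjusted p = 0.337). Hcst, the adaptor DAP10, rose by 1.16 (SE 0.14, limma adjusted p = 5.08e-08), Ly6c2 by 0.77, Ctla2a by 0.88, Gimap3 by 0.99 and Cxcr6 by 0.83, each higher in 3 of 3 libraries. Of the killing genes, Nkg7, Srgn and Prf1 rose among 11 tested. Costimulation gave 5 of 12 (Icos, Cd28, Cd2, Cd6 and Tnfrsf4). The list of other inhibitory receptors gave 5 of 8 (Klrd1, Lgals3, Vsir, Lilr4b and Ctla4), though Lgals3 encodes a galectin and not a receptor. No gene of either list was called lower. Several of these calls were lost in other settings: Ctla4 in 8 of 12, Tnfrsf4 in 8 of 11, Cd6 in 7 of 11, Lilr4b in 6 of 11 and Cd2 in 6 of 12, while Ccl5, Hcst, Ly6c2, Ctla2a, Gimap3 and Nkg7 passed in all 12.

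The T cell receptor beta chain gives a view of clonal make-up that the rule did not use. Cells with exactly 1 Trbv gene detected numbered at least 10 of both kinds in libraries 5, 6 and 8 alone. In library 6, Trbv1 was carried by 50 of 113 checkpoint-high cells (44.2%, exact 95% interval 34.9 to 53.9%) and by 13 of 65 checkpoint-low cells (20%, 11.1 to 31.8%). In library 5 the most frequent was Trbv29, in 17 of 33 cells (51.5%) against 8 of 25 (32%), and in library 8 Trbv16, in 10 of 26 (38.5%) against 2 of 30 (6.67%). The leading segment among the cells with exactly 1 Trbv gene therefore differed between these libraries, and the intervals cover counting error only. Each was picked as the most frequent in checkpoint-high cells, which by itself favours a higher share there. The leaders of checkpoint-low cells were Trbv16 in library 5, in 9 of 25 against 6 of 33 checkpoint-high cells, and Trbv4 in library 8, in 7 of 30 against 3 of 26. In library 6, Trbv1 and Trbv29 led with 13 of 65 each, and Trbv29 was in 18 of 113 checkpoint-high cells.

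The chance that a random pair of checkpoint-high cells shared a Trbv gene was 29.9, 24.2 and 20% in libraries 5, 6 and 8, against 22.0, 10.1 and 11.0% for checkpoint-low cells. It was higher in 3 of 3 libraries, by 10.3 percentage points on average, and a two-sided exact sign-flip test gave p = 0.25, the smallest that 3 libraries allow. A single deleted library had enough cells, so the genotypes were not compared. V segments name families of receptors and not single clones.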

How the data were processed

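Single-cell RNA of 8 tumours was measured with a 10x Genomics 5′ kit, per the labels. The deposited values are the natural log of 1 plus UMIs per 10000 of the cell, a unit read from the values. Per the submitters' processing notes, Cell Ranger 2.1, Seurat 3.0 and mm10 were used. Whole UMIs were recovered for 100% of values within 0.01 UMI. Libraries held 4371773 to 59235799 UMIs. Genes that a library does not list were counted as 0.

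Levels are mean UMIs per 10000 over the cells of a library. Their log2 with 0.5 added was fitted with limma (version 3.58.1, R 4.3.3, prior variance trended on the mean) in libraries with at least 20 cells of each kind compared. A gene was tested when at least 10% of cells had a UMI in a number of libraries equal to the smaller group. P-values were adjusted over all genes tested by Benjamini-Hochberg at 0.05, and the scripts were tested on simulated data. Shares were compared by exact permutation over libraries. Genes named are the 12 of smallest p in each direction among those that passed (the 10 of smallest p where fewer passed), leaving out ribosomal genes and gene models, and those of the lists that passed or differed most. Other genes of the lists are given as values. Rps27 and AC163354.1, outside this rule, were named after their values were seen. The cells and gene lists were chosen with earlier results of these data known.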

Additional observations from a re-analysis of the deposited data

Results flagged for a closer look

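The difference between checkpoint-high and checkpoint-low CD8 T cells was larger in deleted than in wild-type hosts for Ccl8, by 2.23 on the log2 scale (SE 0.32, limma adjusted p = 0.0244), and for Rgs16, by 1.66 (SE 0.25, limma adjusted p = 0.0244), each a test of the difference itself in 3 wild-type and 2 deleted libraries. For Rgs16 the checkpoint-high and checkpoint-low levels were 2.98 against 2.78, 7.34 against 4.49 and 4.27 against 3.29 UMIs per 10000 in wild-type libraries 2, 5 and 6. They were 5.38 against 1.07 and 4.34 against 0.605 in deleted libraries 4 and 8. For Ccl8, library 4 had 5.41 against 1.4 UMIs per 10000 and library 8 0.699 against 0.233, while wild-type libraries 2, 5 and 6 had less in checkpoint-high cells. Library 4 also carried the most myeloid RNA, a mean of 83.98 UMIs per 10000 over 12 genes, and its part in the Ccl8 value was not tested.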

How the results depend on the processing

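No paired analysis was possible between genotypes because the labels give each library its own number, so none is shared. Comparisons between kinds of cell were made within libraries throughout. Between genotypes within checkpoint-high cells, 0 genes instead of 1 were called with a pseudocount of 0.1, with summed UMIs, at 1000 UMIs per cell, with the median of tested genes set equal, with at least 3 checkpoint genes or without cells with 2 or more genes of other cell types. There were 4 with at least 10 cells per library, 35 with a term for the barcode sets, 176 with none of the 6 cycling genes (library 4 drops out), 2 without cells above 30 UMIs per 10000 of other cell types, and 0 to 64 with 1 library left out. Leaving out library 4 or 8, requiring none of the cycling genes or at least 3 checkpoint genes, and both filters on other cell types leave 1 deleted library, assumed to vary like the others. Against checkpoint-low cells, 1 gene instead of 27 was called with no detection filter (14665 genes tested), 120 on the mean deposited log value (105 higher, 15 lower), 6 at 1000 UMIs, 127 without cells with 2 or more genes of other cell types, 113 with the barcode set term, 185 without cells above 30 UMIs per 10000 of other cell types, and 5 to 97 with 1 library left out. For the interaction, the 2 calls became 0 with a pseudocount of 1, with no filter, on log values, at 1000 UMIs or with 10 cells per library, 19 and 33 without the cells holding RNA of other types (2 or more genes, or above 30, each with library 8 as the only deleted library), 8 with the barcode set term, and 0 to 33 with 1 library left out. Against cycling cells, 402 calls became 162 with no filter, 780 on log values (39 higher, 741 lower), 68 at 1000 UMIs and 650 with 10 cells per library.

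The share of all cells differed by -1.13 percentage points (exact permutation p = 0.0857). Its unadjusted exact p was 0.0286 as -0.364 at 1000 UMIs (adjusted 0.0381), as -0.963 with none of the cycling genes (adjusted 0.0571) and as -6.64 (adjusted 0.0571) without cells with 2 or more genes of other cell types, which removes most non-T cells from the total. It ranged from -1.45 to -0.747 with 1 library left out. The share of T cells, -18.4 points, had an unadjusted exact p of 0.0286 in all settings of membership except at least 3 checkpoint genes (-5.22, exact p = 0.2) and 0.0556, the smallest possible, when permuted within barcode sets. Adjusted over the 4 denominators it passed at 1000 UMIs alone (0.0381), and was 0.0571 to 0.743 elsewhere. It ranged from -21.3 to -15.7 with 1 library left out, with exact permutation p of 0.0286 to 0.0571. The share of non-cycling CD8 T cells, -21.4, had an exact permutation p of 0.0286 (adjusted 0.0381) as -9.85 at 1000 UMIs. The Atg7 difference, -5.4e-05 UMIs per 10000, ranged from -0.0431 to 0.0429 with 1 library left out. Single genes turned sign only for Rora against cycling cells (-0.011) and for the interaction of Cd74 (-0.38), both with 10 cells per library. The alternative on 30 UMIs per 10000 was chosen after seeing the data. Causes of these shifts were not tested. Without 1 library, no fit against cycling cells was made, since 2 libraries remained. Few cells limit the depth: library 7 held 3 checkpoint-high cells and entered no fit.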
